A study of Mus musculus with 6 samples.

Results

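Ion channels of the heart other than those of the fast transient outward current were compared between hearts of DNMTs-Tg and wild-type mice. The 33 channel genes considered are pore-forming and auxiliary subunits of sodium, potassium, calcium, HCN and TRP channels. Their probe sets were taken as those whose platform annotation gives a single gene symbol, and that symbol or a synonym of it is a member. This gave 56 of the 45101 probe sets on the array, which measure 31 of the 33 genes, 16 of them by more than 1 probe set. Hcn4 and Scn4a had no such probe set and were not analysed here.

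The DNMTs-Tg group was 3 mice that ectopically express the DNA methyltransferases DNMT3A2, a short form of DNMT3A, and DNMT3L, its catalytically inactive partner. They were bred from Ddx4-cre transgenic females on the FVB strain and a male carrying the floxed construct. Ddx4 is a germ-cell gene, so the Cre driver is not specific to the heart. The controls were 3 wild-type mice, and the labels do not say whether these were littermates or carried either parental transgene. All 6 mice were 8 weeks old, with 1 array per mouse. Replicate numbers are those of the labels, 1, 5 and 6 for DNMTs-Tg and 1, 4 and 6 for wild-type.

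Median log2 signals per array were 5.28 to 5.33, and any 2 arrays correlated at 0.970 to 0.995 over probe sets, which are not independent replicates. The transgene Dnmt3l had signals of 12.19 to 12.38 in DNMTs-Tg and 5.17 to 5.48 in wild-type hearts, a difference of 6.98 ± 0.12 (log2, SE; limma, adjusted p = 1.25e-06). Sex-linked RNA did not match the labelled sex on 4 arrays, the 3 of DNMTs-Tg mice and that of wild-type replicate 1. Xist was at 10.1 only on the array of wild-type replicate 4, which alone lacked signal of the Y-linked Eif2s3y (3.32, against 9.41 to 9.52 on the others). By these RNAs that mouse was female and every other mouse male, so sex was not balanced between the groups. The calls of Kcne1 and Kcnj3 given below ended without that array, as they did without some others. DNMTs-Tg replicate 1 stood farthest from the wild-type arrays on the first principal component, which held 62.1% of the variance, with a score of -72.9 against -26.8 and -4.35 for replicates 5 and 6 and 32.3 to 37.8 for wild-type. The signal of the Gapdh control probe sets at the 3′ end exceeded that at the 5′ end by 0.53 to 0.75 (log2) on DNMTs-Tg and by 0.40 to 0.50 on wild-type arrays. For Actb the excess was 0.91 to 1.40 and 1.09 to 1.25. The part of RNA quality and of sex in the results was not tested. Results that led the comparison are given with single arrays left out.

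As background, the cardiac action potential is shaped by an inward sodium current, a sustained inward calcium current and several outward potassium currents that return the membrane to rest. Pore-forming subunits set what a channel conducts, and auxiliary beta, KCNE and alpha2delta subunits set how it gates and how much of it reaches the membrane. In adult mouse ventricle, repolarization is fast and rests mainly on transient outward and ultrarapid currents, whereas the slow delayed rectifier, formed by Kcnq1 with Kcne1, is small. The acetylcholine-gated channel, formed by Kcnj3 with Kcnj5, is most abundant in atria and in the sinoatrial and atrioventricular nodes, where vagal input opens it to slow the heart.

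Kcne1 and Kcnj3 were the channel genes with a probe set past the test. Kcne1, the beta subunit of the slow delayed rectifier, rose 3.93-fold. Kcnj3 encodes the GIRK1 subunit of the acetylcholine-gated channel, and 1 of its 3 tested probe sets fell 1.92-fold. The other tested probe sets of Kcnj3, of higher mean signal, were 3.96- and 4.34-fold lower and did not pass (limma, adjusted p = 0.148 and 0.143). No other member probe set passed the test. Testing was limited to probe sets whose signal exceeded the array's 40th percentile (a log2 signal of 4.64 to 4.72) on 3 or more of the 6 arrays. Of the 56 member probe sets 43 were kept, and 28 of the 31 genes had at least 1. Differences are DNMTs-Tg minus wild-type on the log2 scale with n = 3 per group throughout, and adjusted p-values come from limma with Benjamini-Hochberg adjustment over all 27345 kept probe sets.

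At an adjusted p of 0.05, 2 member probe sets rose, both of Kcne1, and 1 fell, of Kcnj3, together 6.98% of the 43. Over all kept probe sets 4.13% were called, with 1.77% higher and 2.36% lower. The groups did not overlap for 19 member probe sets (44.2%), against 32.5% of all, and 14 (32.6%) had an unadjusted p under 0.05, against 24.2% of all. Several probe sets measure the same gene and are not independent. With each gene represented by its kept probe set of highest mean signal over the 6 arrays, 1 of 28 genes was called, which rose (3.57%), against 4.81% of all 13628 genes represented in this way, with 2.03% higher and 2.78% lower. Of the 28 genes 9 did not overlap (32.1%, against 34.9% of all genes) and 7 had an unadjusted p under 0.05 (25%, against 26%). By gene these shares lay at or below those of all genes.

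Of the 28 genes, 20 had a lower mean in DNMTs-Tg (71.4%, against 49.2% of all genes), and their median difference was -0.15, against 0.01 over all genes. The median absolute difference was 0.29, against 0.20. Among the 6 arrays, DNMTs-Tg replicate 1 had the lowest value for 14 of the 28 genes (50%, against 30.1% of all genes) and the highest for 3. Without that array 17 of the 28 had a lower mean (60.7%, against 48.4% of all genes) and the median difference was -0.07, and without wild-type replicate 1 the count was also 17 (60.7%, against 48.5%). On the array of DNMTs-Tg replicate 1 macrophage markers (1.26 above the wild-type mean) and fibroblast markers (0.95) were higher and cardiomyocyte markers (-0.22) lower, and their part in the shift was not tested. These counts describe the members and carry no test. Fewer cells of a type and less RNA per cell cannot be told apart in RNA of heart tissue.

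**Figure D1:**
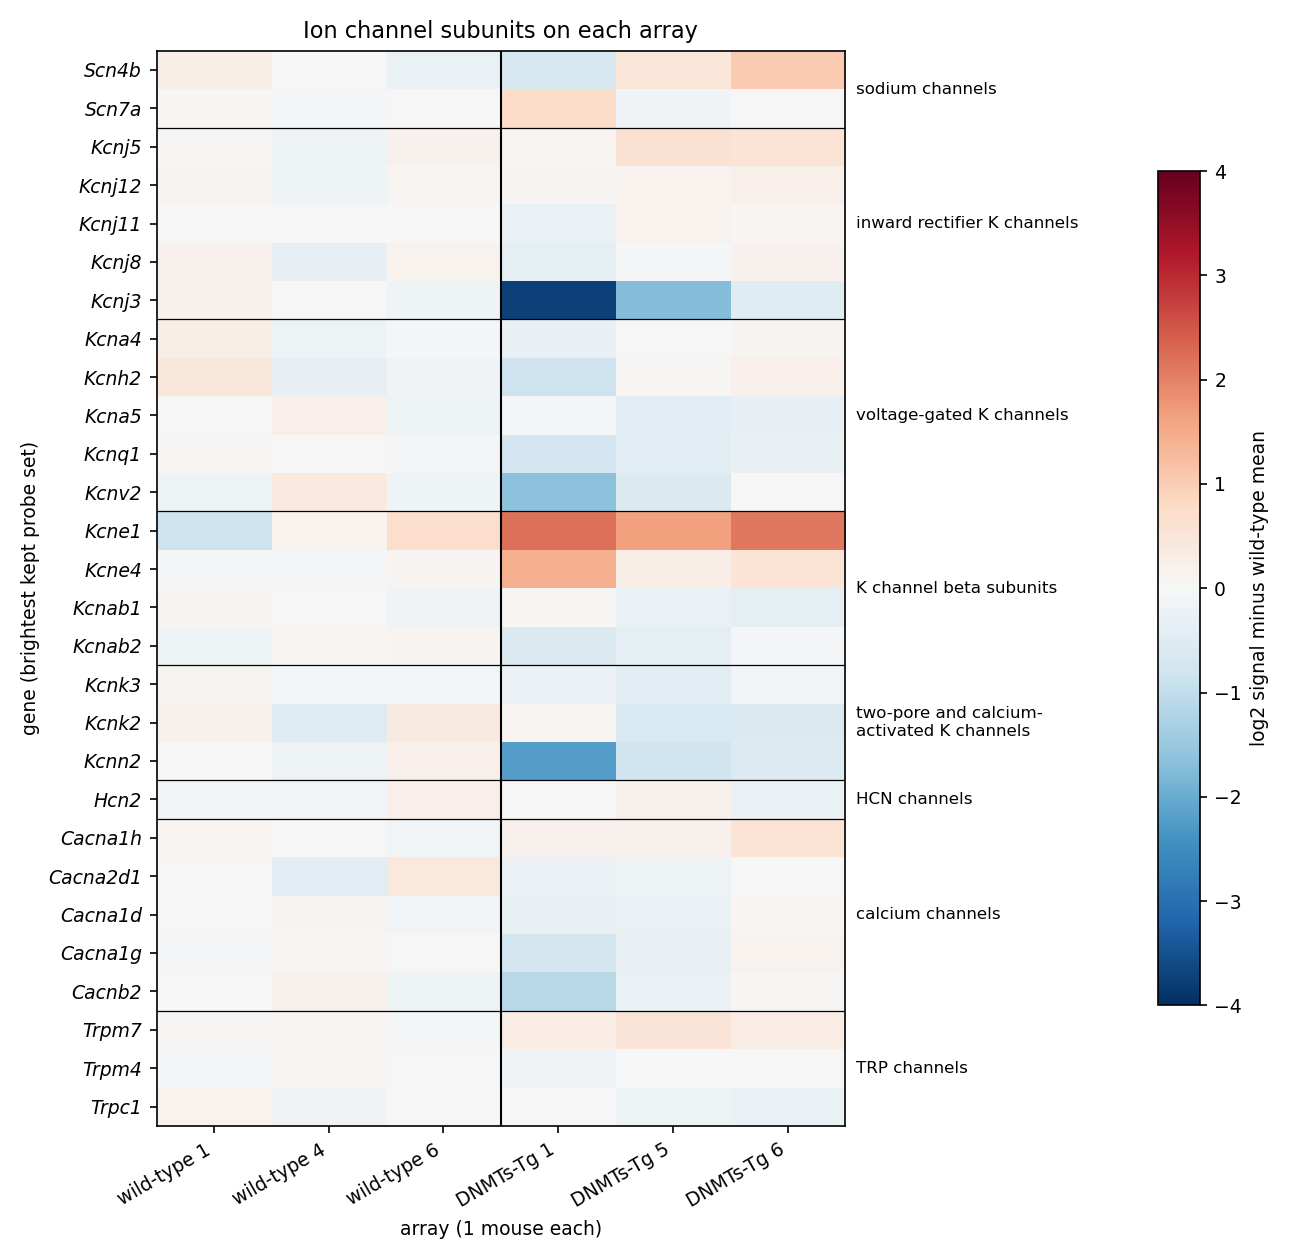
Log2 signal of 28 channel genes (rows, grouped by channel family) on the 6 arrays (columns), each relative to the mean of the 3 wild-type arrays. Kcne1 is higher on all 3 DNMTs-Tg arrays, whereas the lower values of Kcnj3 and Kcnn2 are deepest on the array of DNMTs-Tg replicate 1.

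Kcne1 encodes a single-pass membrane protein that slows the opening of Kcnq1 channels and enlarges their current. Its first probe set (1420672_at) had log2 signals of 9.05, 8.48 and 8.95 in DNMTs-Tg replicates 1, 5 and 6 and of 6.01, 7.00 and 7.55 in wild-type replicates 1, 4 and 6. All 3 DNMTs-Tg arrays were above all wild-type arrays, and the wild-type values spread over more than a log2 unit. The means were 8.83 ± 0.30 (SD) and 6.85 ± 0.78, and the difference was 1.97 ± 0.37 (SE; limma, adjusted p = 0.0334). The second probe set (1441035_at) had 8.46, 7.37 and 7.53 in DNMTs-Tg and 6.38, 6.42 and 6.52 in wild-type hearts. Here the wild-type arrays lay close together and DNMTs-Tg replicate 1 stood above the other two. The difference was 1.36 ± 0.27 (adjusted p = 0.0408), a 2.56-fold rise, and with the mean of both probe sets Kcne1 rose by 1.66 (adjusted p = 0.0228).

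The direction of Kcne1 was the same whichever array was left out, but the call depended on the array. The first probe set differed by 1.55 to 2.33 and lost the call without DNMTs-Tg replicate 5 (adjusted p = 0.0937), wild-type replicate 1 (0.0737) or wild-type replicate 4 (0.123), within a range of 0.043 to 0.123 over the 6 fits. The second differed by 1.02 to 1.56 and kept the call only without DNMTs-Tg replicate 1 (0.00665) or 6 (0.0334). It lost the call without DNMTs-Tg replicate 5 (0.0799) or wild-type replicate 1 (0.161), 4 (0.153) or 6 (0.139).

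Kcnq1, the voltage-gated pore that Kcne1 modulates, had signals of 8.17, 8.49 and 8.64 in DNMTs-Tg and 8.95, 8.95 and 8.87 in wild-type hearts. Its groups did not overlap, and the values lay on the opposite side from those of Kcne1. The difference was -0.49 ± 0.14 (unadjusted p = 0.00944, adjusted p = 0.0966), which did not pass the test. Without DNMTs-Tg replicate 6 it was -0.59 and passed (adjusted p = 0.0432, over a range of 0.0432 to 0.275 with each array left out).

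Kcne4, a KCNE subunit that inhibits Kcnq1 channels when the proteins are expressed together, had 8.72, 7.55 and 7.84 in DNMTs-Tg and 7.25, 7.24 and 7.41 in wild-type hearts. The groups did not overlap and DNMTs-Tg replicate 1 was the highest. The difference of 0.74 ± 0.28 did not pass the test (adjusted p = 0.167) and was 0.40 without that array (adjusted p = 0.136). Kcne3 was not kept, with signals of 3.08 to 3.26 on the 6 arrays.

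Among the cytosolic beta subunits of voltage-gated potassium channels, Kcnab1 differed by -0.19 ± 0.15 (adjusted p = 0.467). Kcnab2 is a gene whose kept probe sets differed in sign. The first had 4.55, 4.76 and 5.05 in DNMTs-Tg and 4.95, 5.21 and 5.24 in wild-type hearts, a difference of -0.34 ± 0.16 (adjusted p = 0.234). The second had 5.09, 4.31 and 4.81 against 4.70, 4.60 and 4.76, a difference of 0.05 ± 0.19 (adjusted p = 0.896). Both lay near the percentile used for the filter. Of the 4 kept genes among the 5 potassium channel beta subunits, 2 were higher and 2 lower, and 1 rose.

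**Figure D2:**
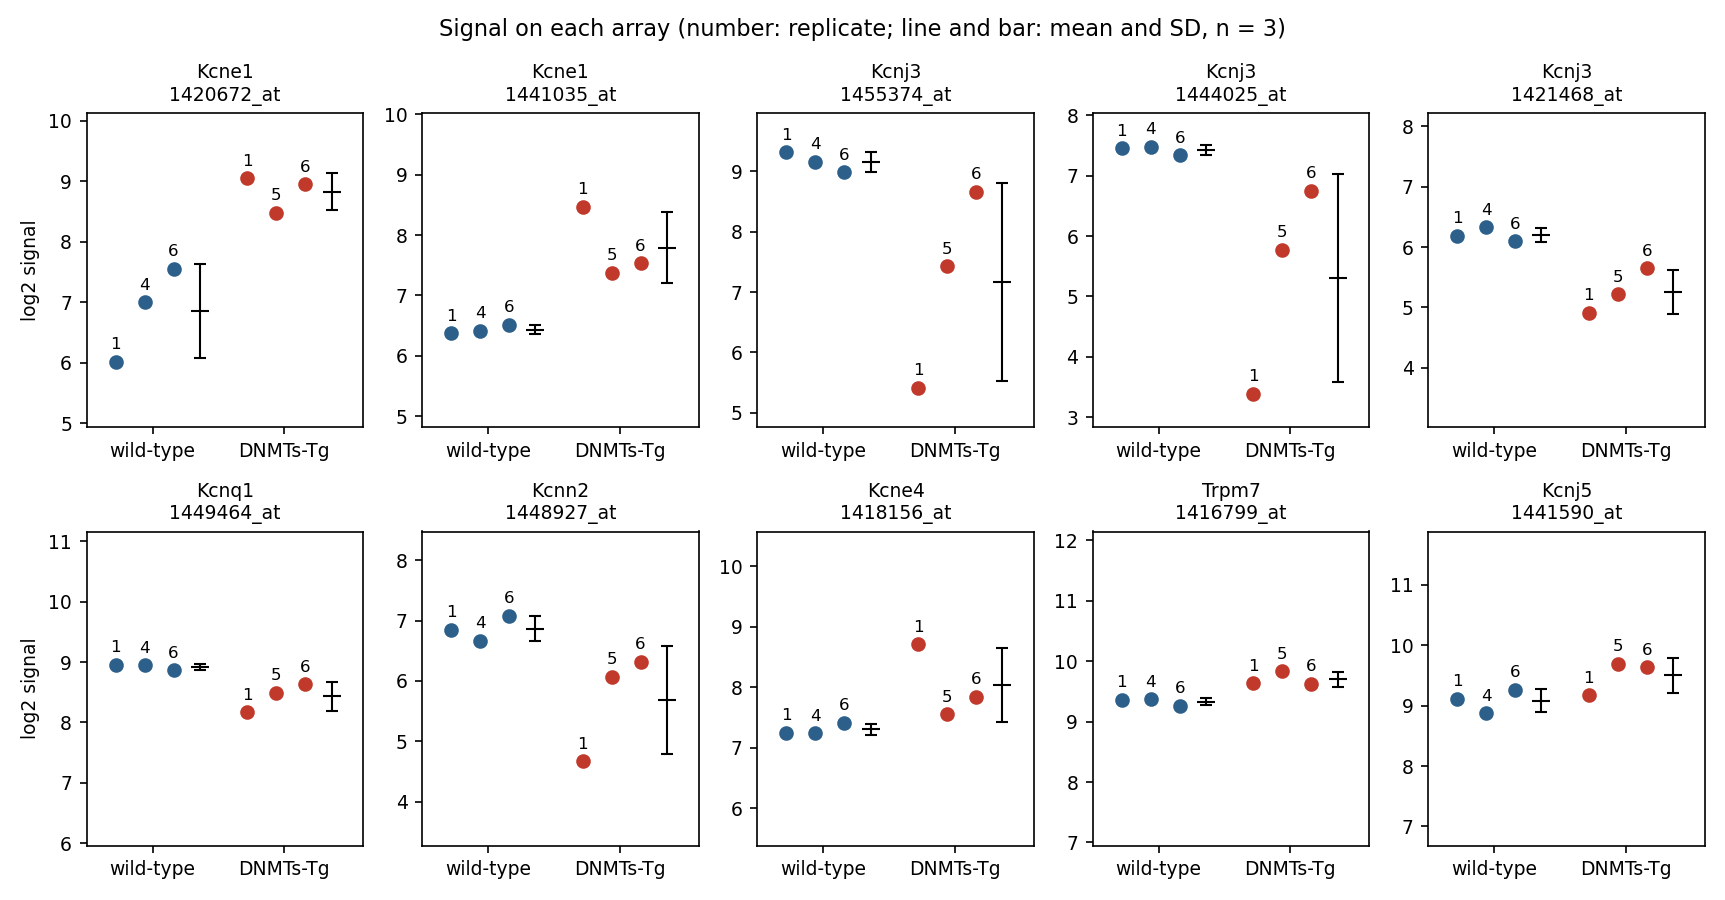
Log2 signal (y axis, the same span in every panel) on each array for probe sets of 7 channel genes, wild-type on the left and DNMTs-Tg on the right of each panel, labelled by replicate, with the mean and SD (n = 3) beside each group. Of the 7 genes only Kcnj5 overlaps between the groups, and 32.5% of all kept probe sets do not overlap. The 3 DNMTs-Tg arrays of Kcnj3 spread far more widely than the wild-type arrays.

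Kcnj3 and Kcnj5 encode the GIRK1 and GIRK4 subunits that assemble into the acetylcholine-gated potassium channel. The sequence before their annotated start is shown because the mice overexpress DNA methyltransferases, which act on the dinucleotide CG. On the probe set of highest mean signal Kcnj3 had a lower and Kcnj5 a higher mean in DNMTs-Tg. Neither difference passed the test (limma, adjusted p = 0.148 and 0.2). DNA methylation was not analysed here. The sequences are from RefSeq (GRCm38.p6), 5′ to 3′ on the gene's strand, and cover the 250 bases upstream of the annotated start, chr2:55435720-55435969 on the plus strand for Kcnj3 and chr9:32344345-32344594 on the minus strand for Kcnj5. Capitals mark each CG.
Kcnj3: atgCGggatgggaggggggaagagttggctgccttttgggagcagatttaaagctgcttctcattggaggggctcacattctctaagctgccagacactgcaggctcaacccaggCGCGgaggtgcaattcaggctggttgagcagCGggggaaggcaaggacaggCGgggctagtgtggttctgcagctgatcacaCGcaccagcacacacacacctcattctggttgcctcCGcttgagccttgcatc
Kcnj5: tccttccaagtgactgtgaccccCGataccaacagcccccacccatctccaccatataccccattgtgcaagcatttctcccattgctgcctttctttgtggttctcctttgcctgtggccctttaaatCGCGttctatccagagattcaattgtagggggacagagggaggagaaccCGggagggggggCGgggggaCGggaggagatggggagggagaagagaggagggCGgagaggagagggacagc
Each holds 7 CG. In the full promoter window of 300 bases, which adds 50 bases after the start, each holds 10, and 43.5% of all 32851 mouse promoter windows hold at least as many. CG reads the same on both strands and cannot overlap itself. Windows were found for 22 of the 31 measured members, 32 in all, with a median of 10 CG (range 1 to 63), against a median of 7 over all windows. Kcne1, Kcnq1 and Kcnn2 were not among them.

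Kcnj3 was lower in DNMTs-Tg on every kept probe set. The one of highest mean signal (1455374_at) had 5.41, 7.42 and 8.66 in DNMTs-Tg replicates 1, 5 and 6 and 9.31, 9.16 and 8.99 in wild-type replicates 1, 4 and 6. The DNMTs-Tg arrays were all below the wild-type arrays and covered more than 3 log2 units, with replicate 6 close to wild-type and replicate 1 far below. The means were 7.17 ± 1.64 (SD) and 9.15 ± 0.16, a 3.96-fold lower level. The difference of -1.99 ± 0.70 did not pass the test (adjusted p = 0.148). Another probe set (1444025_at) followed the same order, with 3.39, 5.78 and 6.75 against 7.45, 7.48 and 7.33, a difference of -2.12 ± 0.74 (adjusted p = 0.143). Its value in DNMTs-Tg replicate 1 was below the percentile used for the filter.

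The probe set of Kcnj3 that passed the test (1421468_at) had 4.91, 5.22 and 5.65 in DNMTs-Tg and 6.19, 6.33 and 6.09 in wild-type hearts. It kept the order of the DNMTs-Tg arrays with a narrower spread, and fell by 0.94 ± 0.19 (adjusted p = 0.0425). Leaving out DNMTs-Tg replicate 5 (adjusted p = 0.135) or wild-type replicate 1 (0.159), 4 (0.168) or 6 (0.131) ended the call, and its difference was -1.14 to -0.77 over the 6 fits, with adjusted p from 0.0112 to 0.168. The same happened when no filter on dim probe sets was used (adjusted p = 0.0509). The first probe set of Kcnj3 differed by -1.11 without DNMTs-Tg replicate 1 (adjusted p = 0.0961) and by -2.73 without replicate 6 (adjusted p = 0.0298), over a range of 0.0298 to 0.329. For 1444025_at these values were -1.16 (adjusted p = 0.0493) and -2.84 (adjusted p = 0.0388), over a range of 0.0388 to 0.318. A further probe set of Kcnj3 was not kept, with signals of 2.72 to 3.28.

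**Figure D3:**
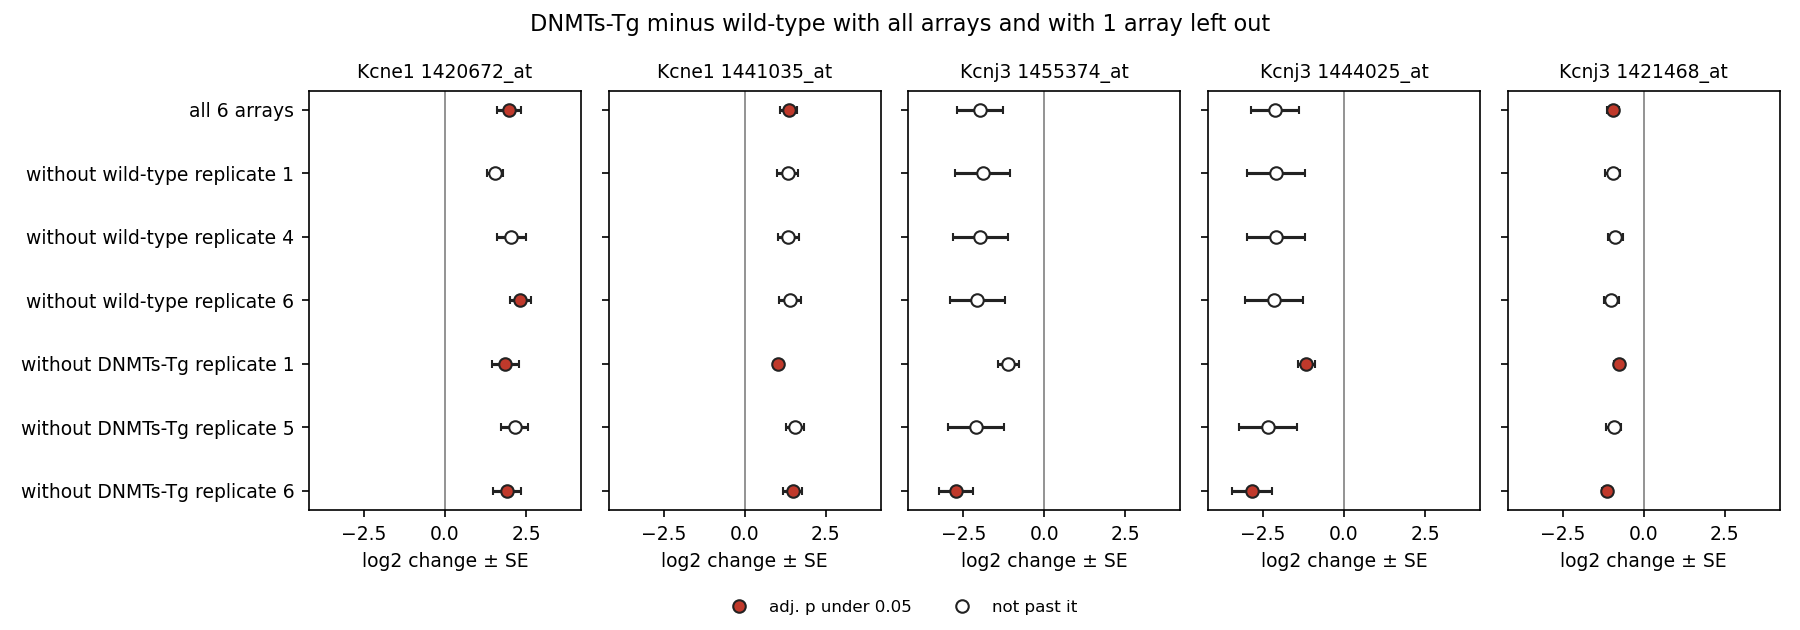
Difference in log2 signal, DNMTs-Tg minus wild-type, with its SE, for each kept probe set of Kcne1 and Kcnj3 with all 6 arrays and with each array left out in turn. The sign is the same in every fit, and the largest shifts of Kcnj3 come without DNMTs-Tg replicate 1 or 6.

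Markers of atrial cardiomyocytes, where Kcnj3 is abundant, were read on the same arrays. All 4 listed markers were kept, 3 had a higher mean in DNMTs-Tg, Sln among them, and 0 passed the test. Sln, the atrial regulator of the calcium pump, had 11.25, 6.80 and 4.84 in DNMTs-Tg replicates 1, 5 and 6, an order opposite to that of Kcnj3. Its wild-type signals, 3.56 to 4.21, all lay below the filter percentile, so Sln was kept only through its DNMTs-Tg signals. Its higher mean did not pass the test (adjusted p = 0.165) and is no support for a rise, and no fold is given. Nppa, the atrial natriuretic peptide gene, overlapped between the groups, at 13.01, 12.42 and 10.21 against 12.08, 9.28 and 11.69. With values below the filter percentile raised to it, the mean log2 level of the list was 2.16, 0.94 and -0.09 on the DNMTs-Tg arrays and -0.47 to 0.27 on the wild-type arrays, relative to the wild-type mean. The summed linear signal was 1343 to 10810 in DNMTs-Tg and 745.2 to 4455 in wild-type hearts, and Nppa made up 76.4% to 97.3% of it. Myl7, a defining atrial gene, was at 4.81 to 5.11 on the 6 arrays, close to the filter percentile of 4.64 to 4.72. Myl4 was at 6.48 to 6.60 against 6.16 to 6.29. With Myl7 and wild-type Sln this dim, how much atrial tissue the samples held is not known. The part of the share of atrial tissue in the Kcnj3 result was not tested.

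Kcnj5 had 9.17, 9.69 and 9.63 in DNMTs-Tg and 9.12, 8.87 and 9.26 in wild-type hearts, so the groups overlapped in DNMTs-Tg replicate 1. The difference was 0.42 ± 0.17 (adjusted p = 0.2), which did not pass the test. Its second probe set was not kept.

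The other inward rectifiers hold the resting potential or couple it to metabolism. Kcnj12, the Kir2.2 subunit of the classical inward rectifier, differed by 0.15 ± 0.12 (adjusted p = 0.48). Kcnj2, the Kir2.1 subunit of the same current, lay below the filter percentile on every array, at 3.03 to 3.28 in DNMTs-Tg and 3.34 to 3.73 in wild-type hearts, so no fold is given. Kcnj8 and Kcnj11 form the pores of ATP-sensitive channels, Kcnj8 in vascular smooth muscle and pericytes and Kcnj11 in ventricular muscle. Kcnj8 differed by -0.08 ± 0.19 (adjusted p = 0.824), and the pericyte markers, 5 of 5 kept, had mean values of -0.11 to 0.22 in DNMTs-Tg and -0.18 to 0.12 in wild-type hearts. That mean combines genes of opposite sign, 3 of the 5 being higher in DNMTs-Tg. Pdgfrb differed by 0.47 ± 0.17 without overlap (limma, adjusted p = 0.156) and Abcc9 by -0.47 ± 0.26 (adjusted p = 0.306). Abcc9 is also among the other heart channel genes. The list therefore cannot show that pericyte RNA was steady. The probe sets of Kcnj11 differed by -0.02 ± 0.14 (adjusted p = 0.939) and -0.28 ± 0.15 (adjusted p = 0.293).

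The 5 voltage-gated potassium channel genes all had lower means in DNMTs-Tg, with a median difference of -0.29, and none passed the test. Without DNMTs-Tg replicate 1 or wild-type replicate 1 only 3 of the 5 were lower, with Kcnh2 at 0.12 and 0.04 and Kcna4 at 0.07 in both fits. The largest difference was in Kcnv2, a silent subunit that alters other voltage-gated potassium channels. It had 6.03, 7.07 and 7.65 in DNMTs-Tg and 7.45, 8.04 and 7.48 in wild-type hearts, which overlapped (-0.74 ± 0.39, adjusted p = 0.289). Kcna5, the pore of the ultrarapid current, differed by -0.29 ± 0.15 (adjusted p = 0.267). Kcnh2, the ERG channel of the rapid delayed rectifier, differed by -0.20 ± 0.31 (adjusted p = 0.733). Kcna4, the Kv1.4 pore of the slow transient outward current, differed by -0.05 ± 0.16 (adjusted p = 0.87).

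Kcnn2 encodes SK2, a small-conductance potassium channel opened by calcium through calmodulin. It had 4.67, 6.07 and 6.32 in DNMTs-Tg and 6.85, 6.67 and 7.08 in wild-type hearts. The groups did not overlap, and DNMTs-Tg replicate 1 was again the lowest. The difference of -1.18 ± 0.40, a 2.27-fold lower level, did not pass the test (adjusted p = 0.134) and was -0.67 without that array (adjusted p = 0.0558, over a range of 0.0558 to 0.315).

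The two-pore channels carry background potassium current. Kcnk3, or TASK-1, was lower in DNMTs-Tg on its 3 kept probe sets, none of which overlapped between the groups. The probe set of highest mean signal had 10.05, 9.86 and 10.20 against 10.40, 10.23 and 10.26, a difference of -0.26 ± 0.12 (adjusted p = 0.234). The second differed by -0.28 ± 0.12 (adjusted p = 0.218). The third had 5.85, 6.06 and 5.36 against 6.49, 6.62 and 6.56, a difference of -0.80 ± 0.18 (unadjusted p = 0.00294, adjusted p = 0.0589) that passed the test only without DNMTs-Tg replicate 6 among the fits that left out 1 array (-0.60, adjusted p = 0.0382, over a range of 0.0382 to 0.197). With the mean of its 3 probe sets Kcnk3 differed by -0.45 and passed (adjusted p = 0.037). Kcnk2, the stretch-activated TREK-1, differed by -0.37 ± 0.28 (adjusted p = 0.448). Neither probe set of Kcnk1, or TWIK-1, was kept. Their signals were 4.30 to 4.49 and 3.76 to 4.26 in DNMTs-Tg and 4.66 to 5.03 and 4.31 to 4.91 in wild-type hearts, without overlap but mostly below the filter percentile. No DNMTs-Tg signal reached the percentile, so no fold is given.

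Hcn2, a channel of the pacemaker current also present in ventricle, had 8.42, 8.58 and 8.15 in DNMTs-Tg and 8.32, 8.31 and 8.63 in wild-type hearts, a difference of -0.04 ± 0.16 (adjusted p = 0.907). Of the 7 markers of pacemaker and conduction cells, 5 were kept and 0 passed the test. Their mean values were -0.19 to -0.01 in DNMTs-Tg and -0.11 to 0.16 in wild-type hearts, relative to the wild-type mean. Isl1 and Vsnl1 were not kept.

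Neither of the measured sodium channel genes passed the test. Scn4b, an auxiliary subunit of the cardiac sodium channel, had 8.75, 9.86 and 10.42 in DNMTs-Tg and 9.64, 9.39 and 9.13 in wild-type hearts. Replicate 1 was below every wild-type array and replicates 5 and 6 above, and the difference was 0.29 ± 0.39 (adjusted p = 0.684). Scn7a encodes a sodium-sensing channel of glia and other non-muscle cells. Its 3 probe sets were each highest on the array of DNMTs-Tg replicate 1. There the first was at 9.37, against 8.56 to 8.70 in wild-type hearts, the second at 9.07, against 7.94 to 8.20, and the third at 6.56, against 5.61 to 5.84. They differed by 0.20 ± 0.22, 0.41 ± 0.25 and 0.23 ± 0.25 (adjusted p = 0.613, 0.352 and 0.606). On that array the fibroblast markers, 5 of 5 kept, were at 0.95 above the wild-type mean and the macrophage markers, 5 of 5 kept, at 1.26, against 0.08 to 0.16 and -0.20 to 0.03 on the other DNMTs-Tg arrays. All 5 fibroblast markers were there above every wild-type array, but by unequal amounts. Col1a1 was at 10.71, against 7.26 to 9.05 in wild-type hearts, and Tcf21 at 7.99, against 7.78 to 7.87. The Schwann cell and glial markers, 4 of 6 kept, were at -0.16 to 0.02 in DNMTs-Tg and -0.14 to 0.26 in wild-type hearts. The part of these cell types in the Scn7a values was not tested.

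None of the 5 calcium channel genes passed the test. The T-type pores, which open at low voltage, differed in opposite directions. Cacna1h had 5.26, 5.26 and 5.63 in DNMTs-Tg and 5.16, 5.08 and 4.98 in wild-type hearts, without overlap (0.31 ± 0.14, adjusted p = 0.223), and Cacna1g differed by -0.29 ± 0.21 (adjusted p = 0.433). Cacna1d, an L-type pore of nodal and atrial cells, differed by -0.15 ± 0.14 (adjusted p = 0.533). Cacnb2, the main beta subunit of cardiac L-type channels, differed by -0.44 ± 0.28 (adjusted p = 0.368) and -0.54 ± 0.25 (adjusted p = 0.229) on its 2 probe sets, the second without overlap.

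Cacna2d1, the alpha2delta subunit that carries calcium channels to the surface, had 3 kept probe sets that differed in sign. The first had 10.46, 10.50 and 10.70 against 10.70, 10.27 and 11.10, a difference of -0.14 ± 0.20 (adjusted p = 0.708). The second had 8.57, 8.62 and 8.91 against 9.40, 8.92 and 9.35, without overlap, and differed by -0.52 ± 0.17 (unadjusted p = 0.0147, adjusted p = 0.117). The third had 8.30, 7.83 and 7.85 against 8.00, 7.60 and 8.17, a difference of 0.07 ± 0.19 (adjusted p = 0.851).

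Trpm7, a magnesium- and calcium-permeable channel fused to a kinase, was higher in DNMTs-Tg without overlap on 3 of its 4 probe sets. The one of highest mean signal had 9.63, 9.83 and 9.62 in DNMTs-Tg and 9.36, 9.37 and 9.26 in wild-type hearts. Each group was narrow, and the difference was 0.37 ± 0.11 (unadjusted p = 0.0107, adjusted p = 0.102). The others differed by 0.34 ± 0.11, 0.30 ± 0.11 and 0.28 ± 0.13 (adjusted p = 0.13, 0.166 and 0.221), so none passed the test. The last of these overlapped, with 4.92 to 5.09 in DNMTs-Tg and 4.60 to 4.94 in wild-type hearts. It exceeded the filter percentile on 3 DNMTs-Tg arrays and 1 wild-type array. It was thus kept only through its DNMTs-Tg signals and is no support for a rise. Trpc1, a non-selective cation channel, differed by -0.16 ± 0.13 (adjusted p = 0.467), and Trpm4, a calcium-activated monovalent cation channel, by -0.06 ± 0.11 (adjusted p = 0.77).

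**Figure D4:**
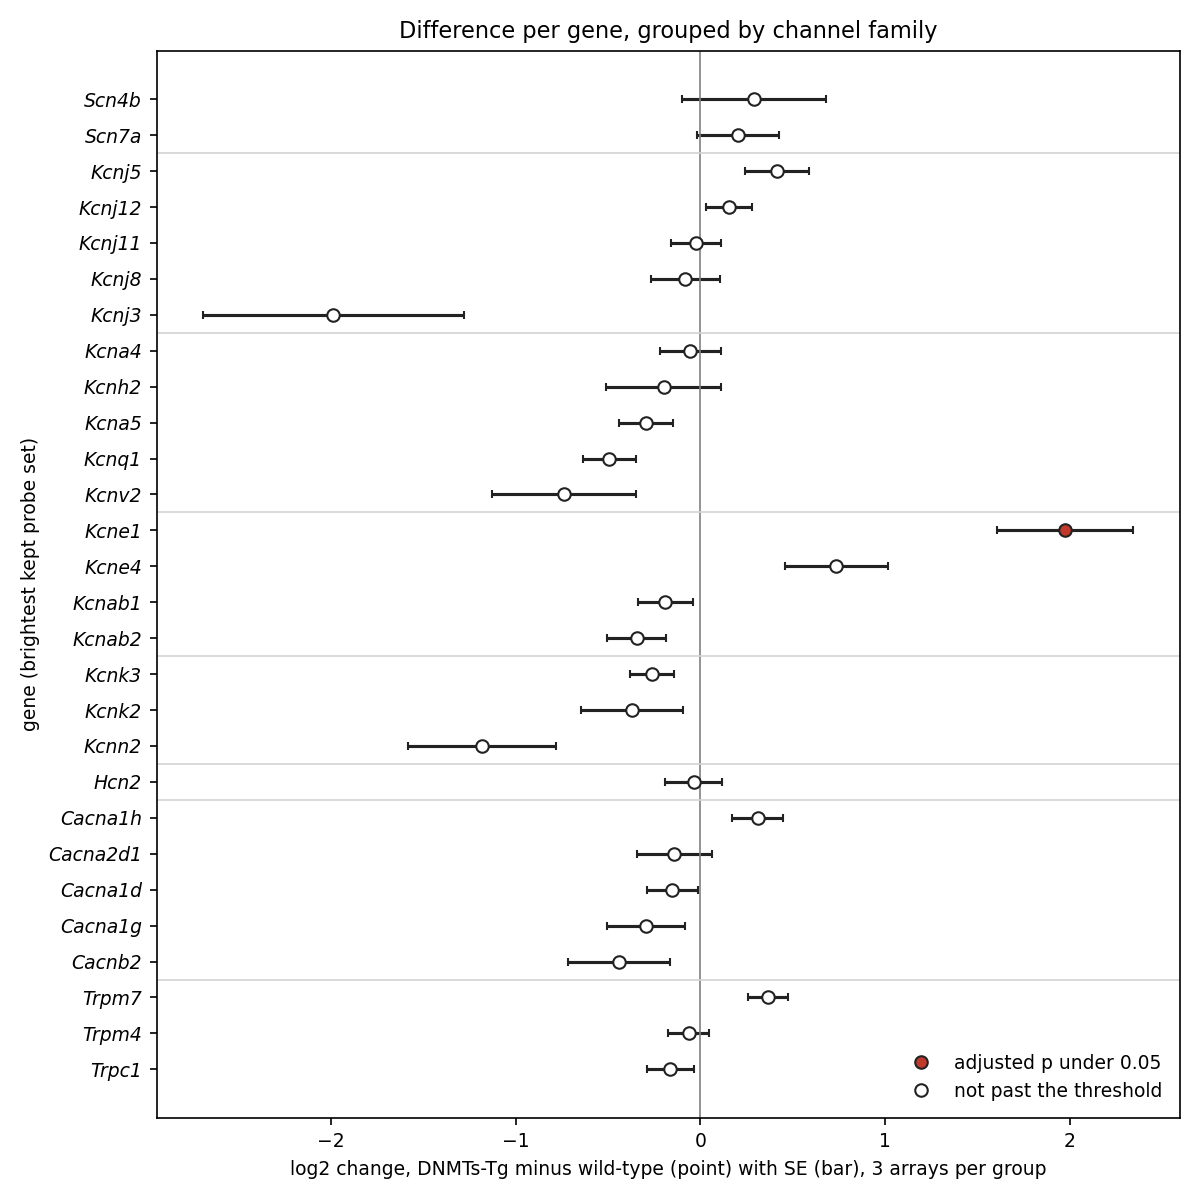
Difference in log2 signal, DNMTs-Tg minus wild-type, with its SE, for the representative probe set of each of the 28 kept channel genes, ordered by family. Kcne1, in red, is the only one past an adjusted p of 0.05, and Kcnj3 has the lowest value with the widest error.

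Genes that work with these channels were read from 3 lists. Of 41 other heart channel genes 27 were kept, of which 2 were called higher and 2 fell, with a median difference of 0.06. Over all genes 2.03% were called higher and 2.78% lower. Kcnd2, the Kv4.2 pore of the transient outward current, had 6.65, 7.80 and 8.66 in DNMTs-Tg replicates 1, 5 and 6, the same order as in Kcnj3, and 9.87, 10.15 and 9.94 in wild-type hearts, and fell by 2.28 ± 0.44 (adjusted p = 0.0371). Kcnn1, the SK1 channel, fell by 0.65 ± 0.14 (adjusted p = 0.0497). The call ended with the average of its probe sets (-0.52, adjusted p = 0.0661), a common median (0.0521), no filter (0.0645) or a filter at the 20th percentile (0.0573). Cacnb1, a calcium channel beta subunit typical of skeletal muscle, rose by 1.35 ± 0.26 (adjusted p = 0.0359), but the mean over its probe sets differed by 0.53 (adjusted p = 0.063). Its probe set carries a suffix for probes shared with other transcripts. Scn3a, a sodium channel pore, was called higher, but it was kept only through its DNMTs-Tg signals of 4.75 to 4.89, as its wild-type signals of 3.82 to 4.36 all lay below the filter percentile, so the call is no support for a rise.

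Of 23 channel anchoring and regulating proteins 20 were kept, with a median difference of -0.20, and 1 was called. Slmap, a membrane protein of cardiac muscle, rose by 0.47 ± 0.10 (adjusted p = 0.046) on 1 probe set, but the mean over its probe sets differed by 0.02 (adjusted p = 0.936). Its call also ended with quantile normalization (0.0689), a common median (0.0508), no filter (0.0615), a filter at the 20th percentile (0.0533) or no trend (0.0714). Of 13 transcription factors of channel genes 10 were kept, with a median difference of -0.17. Irx5, which sets the gradient of potassium channel expression across the ventricular wall, fell by 1.35 ± 0.21 (adjusted p = 0.0202), with 7.03, 6.75 and 7.04 in DNMTs-Tg and 8.26, 7.90 and 8.71 in wild-type hearts. Over the 3 lists 6 of 57 kept genes (10.5%) were called, Scn3a among them, against 4.81% of all genes. The lists were chosen with earlier results of these data known, so this share is no result about them. All 6 calls were lost without wild-type replicate 1 or 6, with adjusted p of 0.0525 to 0.196. Without wild-type replicate 4 Irx5 passed (adjusted p = 0.0369) and the other 5 did not, at 0.124 to 0.187. Without DNMTs-Tg replicate 5 the calls of Kcnd2, Kcnn1, Cacnb1, Slmap and Irx5 were lost (0.0899 to 0.144), and Scn3a was not kept without any 1 of the DNMTs-Tg arrays. Kcnn1 was also lost without DNMTs-Tg replicate 1 (0.062) or 6 (0.0597).

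Among cardiomyocyte markers Myl2 was at 14.4 to 14.7 on every array, and the mean of the 6 markers was -0.22 in DNMTs-Tg replicate 1 and -0.05 in replicates 5 and 6, against -0.03 to 0.02 in wild-type hearts. Signals this near the array maxima of 14.67 to 14.74 may understate differences, so the list cannot show that the share of cardiomyocytes was steady. Over the 12 marker lists 50 of 65 entries were kept and 0 were called by limma, with 7 at an unadjusted p under 0.05. Over all genes 4.81% were called and 26% had an unadjusted p under 0.05. Endothelial (5 of 5 genes kept), adipocyte (2 of 5) and skeletal muscle (3 of 7) lists lay within -0.14 to 0.25 in DNMTs-Tg hearts. The kept skeletal muscle genes were dim, at 4.99 to 5.71 on the 6 arrays. Lists this short or dim cannot show that the share of a cell type was steady. Smooth muscle markers were at 0.00 in DNMTs-Tg replicate 1, -0.61 in replicate 5 and -0.44 in replicate 6, against -0.27 to 0.15 in wild-type hearts. The neuronal list, with 2 of 6 genes kept, was at -0.70 in DNMTs-Tg replicate 1 and -0.07 and 0.07 in the others.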

How the data were processed

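Total RNA of 6 mouse hearts was labelled with biotin by in vitro transcription and read on Affymetrix expression arrays, per the labels' protocols. The authors deposited a single summary per probe set for each array, which was taken as a log2 signal put on a common scale by the authors, judging from the range of 2.06 to 14.7 and the near-equal array medians. The method of background correction and normalization is not given in the sources used here. Detection calls were not used here. The values were analysed as deposited. Probe sets were named from the platform table, updated by gene identifier to GRCm38.p6 (34754 of 45101 probe sets matched). Of all probe sets, 34958 had 1 symbol, 932 several and 9211 none, and 64 control probe sets were left out.

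Probe sets above the array's 40th percentile on 3 or more of the 6 arrays were tested. That percentile is a choice, not a background measurement. Differences were tested 2-sided in limma 3.58.1 (R 4.3.3; lmFit, eBayes with trend), with Benjamini-Hochberg adjustment over all kept probe sets and a threshold of 0.05. On simulated arrays with normal noise and the SDs of these data, the fit called 57% of 2-fold and 92% of 4-fold changes. A difference that did not pass the test is therefore no evidence of no change. With 3 arrays a group the number of arrays limits precision (an exact permutation test reaches 0.1 at best).

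All member genes were to be named by their kept probe set of highest mean, with values on every array for called members, up to 6 more of smallest p, and those with probe sets of opposite sign, and from other gene lists the called members, at most 6. Sln, Nppa, Myl4, Myl7 and Myl2 were singled out after their values were seen. Of the member probe sets 3 have a name ending in _s_at or _x_at, which marks probes that match other transcripts too, 1 each of Trpm7, Cacna1d and Cacna2d1. The lists overlap, and 4 genes of the pathway lists are also in a marker list. The members and lists were chosen with earlier results of these data known. Alternatives were quantile normalization, a common median, filters at the 20th and 60th percentile or none, 1 value per gene, other variance models, array weights, a replicate block, thresholds of 0.1 and 0.01, and leaving out each array. The counts of lower means without single arrays and the marker values raised to the percentile were added after seeing the data.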

Additional observations from a re-analysis of the deposited data

How the results depend on the processing

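Quantile normalization, a common median, other filters, no trend and a robust variance model left the counts near those reported: 1128 of all kept probe sets, 3 of the members and 1 member gene. With 1 probe set per gene 734 genes were called and 1 member, with all kept probe sets of a gene averaged 717 and 2, Kcne1 and Kcnk3, and with no filter 952 probe sets with 2 members. Estimated array weights gave 9486, with 21 member probe sets and 12 genes. Adjusted p of 0.1 gave 2803, 5 and 2, and of 0.01 gave 191, 0 and 0 (limma; 14 member probe sets and 7 genes at an unadjusted p under 0.05). Leaving out each array gave 119 to 2698 probe sets, 0 to 7 member probe sets and 0 to 3 member genes, with 0 without wild-type replicate 1 or 4 or DNMTs-Tg replicate 5 (9, 11 and 13 member probe sets at an unadjusted p under 0.05). The label number as a replicate block gave 2 probe sets, 0 member probe sets and 0 member genes (limma; 9 and 4 at an unadjusted p under 0.05). Numbers 1 and 6 occur in both groups, and the labels state no pairing. Same-numbered arrays did not deviate together (r = -0.05 and -0.08). With so few pairs and 3 arrays per group, these values cannot show whether the numbers mark a shared litter or batch. The differences of Kcne1 under the replicate block were 2.22 and 1.55 (adjusted p = 0.241 and 0.266), and that of Kcnj3 (1421468_at) was -0.86 (adjusted p = 0.406). Of the 43 kept member probe sets 37 had the same sign under all settings other than leaving out an array, 33 with each array left out and 32 in every fit. The others all belong to members that missed the threshold. With array weights the sign turned in Kcnab2 (1416956_at, -0.33), Hcn2 (0.16), Scn7a (1427495_at, -0.094, and 1436043_at, -0.13), Cacna2d1 (1440397_at, -0.085) and Kcnj11 (1455417_at, 0.11), and with the replicate block in Cacna2d1 (1440397_at, -0.0076). With each array left out, the differences ranged from -0.24 to 0.054 for Kcnj8, -0.14 to 0.082 for Hcn2, -0.16 to 0.069 for Kcna4, -0.40 to 0.12 for Kcnh2, -0.082 to 0.76 for Scn4b, -0.10 to 0.11 for Kcnj11 (1455417_at), -0.070 to 0.39 and -0.065 to 0.38 for Scn7a (1427495_at and 1436043_at), and -0.35 to 0.065 and -0.088 to 0.19 for Cacna2d1 (1433643_at and 1440397_at). The cause of these shifts was not tested. Signal over background was not given, so for probe sets near the filter percentile, such as those of Kcnab2, Kcnk1 and Kcnj2, a small difference could not be told from none.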
